A study of Rattus norvegicus with 20 samples.

Results

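Histone genes were followed through 2 RNA-seq tables of the rat hippocampus. The members were every gene symbol of the tables that starts with Hist1h, Hist2h, Hist3h, H1f, H2af or H3f3, which gave 34 of 17168 rows. Of these, 24 were replication-type genes, the Hist1h, Hist2h and Hist3h symbols, and 10 were replacement genes, the H1f, H2af and H3f3 symbols. By family they were 7 H1, 13 H2A, 8 H2B, 3 H3 and 3 H4 genes. Reads were present for 31 of the 34 in the genotype table (24 replication-type and 7 replacement) and for all 34 in the treatment table.

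The series held 20 female rats killed at 4 months, with 1 library of hippocampus each, taken from the left side by the labels and from the right side by the study's methods. WTNT rats (n = 5) were untreated wild-type animals, and TGNT rats were untreated TgF344-AD animals, which carry human APPsw and PS1-ΔE9 transgenes driven by the prion promoter. The genotype table set 5 TGNT rats beside the WTNT rats. The treatment table set 4 other TGNT rats beside 6 TGTR rats, which carry the same transgenes and were fed chow with diazoxide, a potassium channel opener, and dibenzoylmethane, a plant-derived compound, from day 52 onward. Values are RSEM estimated counts, or RPM, the authors' read counts scaled to a common library size within 1 table. A level in RPM is not divided by transcript length, so levels are compared between rats and not between genes. Total counts ranged from 5848458 to 9926088 per WTNT library, from 6610498 to 8117561 and from 11151973 to 13481985 per TGNT library of the genotype and the treatment table, and from 9215039 to 14175594 per TGTR library. App reads, to which the transgene adds, had a level of 1101 ± 47.5 RPM in WTNT and 2187 ± 122 RPM in TGNT rats (SD, n = 5 each). In the treatment table the App level was 2478 ± 179 RPM in TGNT (SD, n = 4) and 2532 ± 163 RPM in TGTR rats (SD, n = 6).

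Replication-type histones are the bulk histones that package new DNA, and their genes lie in clusters and are transcribed mainly in S phase. Their mRNAs normally end in a stem-loop with no poly(A) tail, although some of the genes also give polyadenylated transcripts in cells that have stopped dividing. Replacement histones, such as H3.3, H2A.Z, macroH2A and the linker histone H1.0, are made outside S phase from polyadenylated mRNAs. They supply the chromatin of non-dividing cells such as neurons. The classes here were assigned by symbol alone, so a member need not fit the description of its class. The libraries were made with a stranded mRNA kit, which captures poly(A) RNA, so the levels of replication-type genes describe what such a kit recovers and not the whole pool of their mRNA.

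Promoter sequences are given first, for the motifs they hold and the genes that share them. RefSeq promoters of the rat assembly GRCr8 were matched for 29 of the 34 members (20 replication-type, 9 replacement), and the 250 bases before each start site were searched on both strands for TATAAA (the TATA box), for CCAAT (the CCAAT box) and for ATTTGCAT (the octamer), which are known from histone promoters. Capitals below mark every match, in either orientation. Hist1h2aa (H2ac1 in RefSeq; GRCr8 chr17:41599673-41599922, minus strand) is shown because it had the largest fold change among histone genes in the genotype comparison, Hist3h2a (H2ac25; chr10:44233033-44233282, plus strand) as an abundant replication-type gene, H3f3b (chr10:101757637-101757886, minus strand) as the replacement gene with the most reads, and H1f0 (chr7:112473030-112473279, plus strand) as a replacement gene without a match.
Hist1h2aa: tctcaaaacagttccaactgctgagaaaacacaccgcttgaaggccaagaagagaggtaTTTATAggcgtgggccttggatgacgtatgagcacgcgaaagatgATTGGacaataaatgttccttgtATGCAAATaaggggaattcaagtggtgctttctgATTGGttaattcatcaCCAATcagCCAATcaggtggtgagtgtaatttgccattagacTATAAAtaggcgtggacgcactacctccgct
Hist3h2a: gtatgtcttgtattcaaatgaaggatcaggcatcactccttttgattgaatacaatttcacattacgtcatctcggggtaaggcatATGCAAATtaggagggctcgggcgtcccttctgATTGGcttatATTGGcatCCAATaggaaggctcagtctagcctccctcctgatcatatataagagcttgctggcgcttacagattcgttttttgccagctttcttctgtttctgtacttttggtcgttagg
H3f3b: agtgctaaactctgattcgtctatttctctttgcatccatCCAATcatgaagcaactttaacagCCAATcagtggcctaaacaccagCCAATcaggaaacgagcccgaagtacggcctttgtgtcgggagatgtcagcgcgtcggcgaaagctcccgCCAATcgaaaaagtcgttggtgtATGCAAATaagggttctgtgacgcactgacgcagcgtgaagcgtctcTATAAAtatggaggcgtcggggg
H1f0: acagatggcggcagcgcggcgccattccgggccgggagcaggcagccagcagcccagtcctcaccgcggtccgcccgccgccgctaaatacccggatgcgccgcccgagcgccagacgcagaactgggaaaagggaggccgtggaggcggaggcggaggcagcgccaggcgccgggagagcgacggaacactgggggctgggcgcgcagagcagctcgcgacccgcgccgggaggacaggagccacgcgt

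Hist1h2aa shares its promoter window with a neighbour. Of its 250 bases, 239 also belonged to the window of Hist1h2ba, which starts on the other strand. The TATAAA match in the opposite orientation, 191 bases before the Hist1h2aa start, lies on the strand of Hist1h2ba. Hist3h2a shared 217 of its bases with Hist3h2bb in the same head-to-head way. Among the replication-type promoters, TATAAA was found in 11 of 20, CCAAT in 18 and ATTTGCAT in 8, and 5 held each of the motifs. Bases shared by a head-to-head pair were counted for both genes, so these are not 20 separate sequences. Hist1h2aa and Hist1h2ba are both among the 5, and Hist3h2a and Hist3h2bb are both among the 8 with ATTTGCAT. Among the 9 replacement promoters the counts were 1, 5 and 1, and the promoter of H3f3b alone held each of the motifs. Over 33469 rat promoters of the same length, 12.9% held TATAAA, 34.0% held CCAAT, 1.56% held ATTTGCAT and 0.158% held each of them. A match is a run of letters and was not tested as a binding site.

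Histone genes resemble each other closely, and RSEM divides a read that fits several genes, which leaves estimated counts that are not whole numbers. Within the genotype comparison's table, 14 of 24 replication-type genes had a fractional count (more than 0.001 from a whole number) in all 10 rats, against 9.33% of 14659 genes with reads. Another 5 (Hist1h1b, Hist1h1t, Hist1h4m, Hist2h2ab and Hist3h3) had whole counts in every rat, as did 82.4% of all genes with reads. In the treatment table, a fraction in all 10 rats was found for 17 of 24, against 10.2% of 14884 genes, and 3 had whole counts throughout, against 82.7%. The replacement genes were split by gene, and the split was the same in both tables. H3f3b (H3.3), H2afz (H2A.Z), H2afy (macroH2A1) and H1f0 (H1.0) had whole counts in all 20 rats, whereas H2afx (H2A.X, phosphorylated at DNA breaks), H2afj (H2A.J) and H2afy2 (macroH2A2) had a fraction in all 20.

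**Figure D1:**
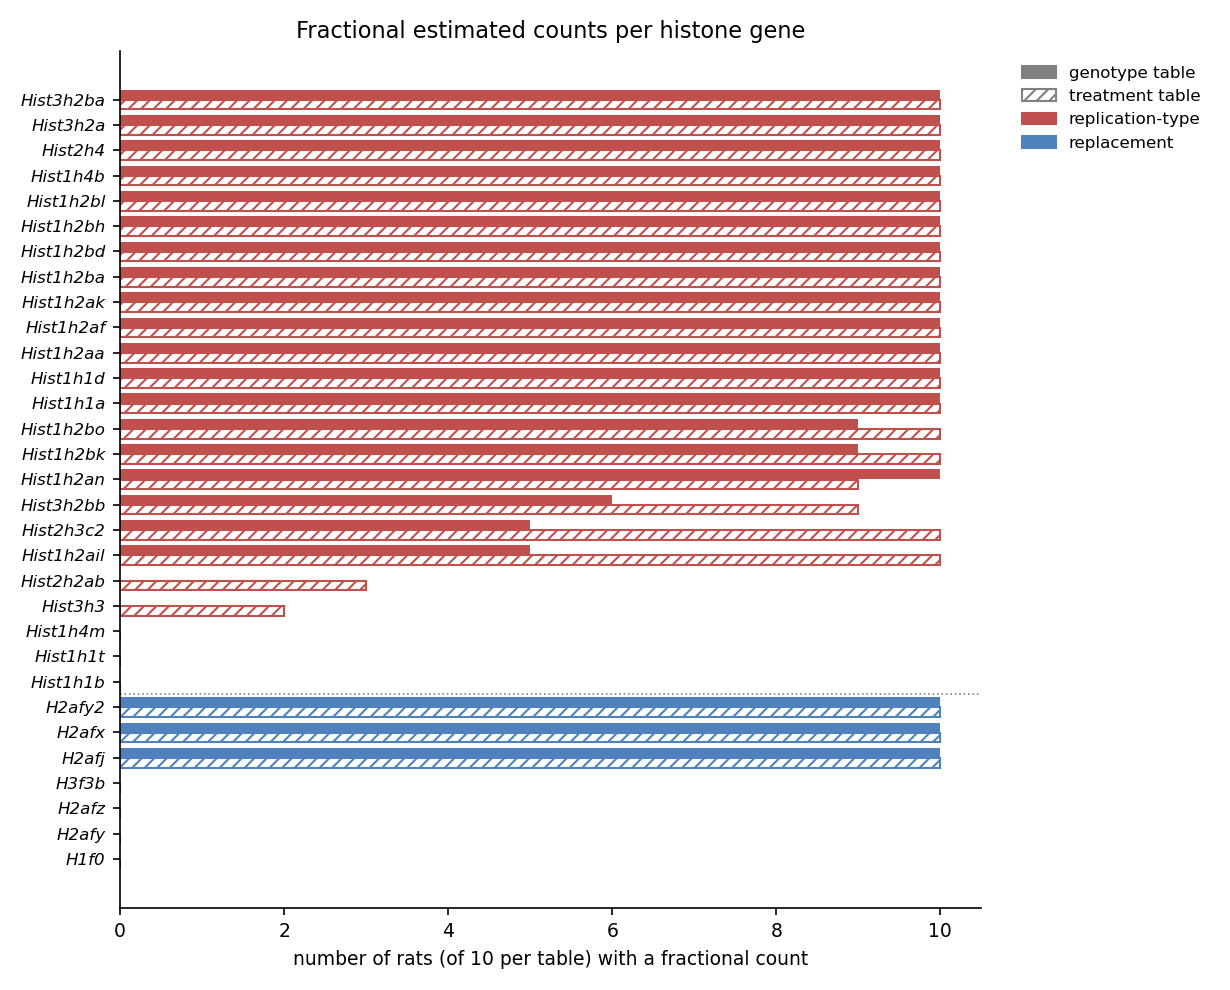
Number of rats, of 10 in each table, whose estimated count was not a whole number, for the 31 histone genes with reads in both tables. Solid bars are the genotype table and hatched bars the treatment table; replication-type genes (red, above the dotted line) mostly reach 10, while H3f3b, H2afz, H2afy and H1f0 stay at 0.

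Most reads of each class came from few genes, counted as reads and not per length. In the genotype table Hist1h4b (H4), Hist1h2bh (H2B), Hist1h1d (a linker histone) and Hist3h2a (H2A) took 69.0% ± 1.92 of the replication-type RPM in WTNT and 68.4% ± 0.501 in TGNT rats (SD, n = 5 each). H3f3b, H1f0, H2afz and H2afy took 93.5% ± 1.04 and 93.2% ± 1.22 of the replacement RPM in the same groups. At the other end, 7 replication-type genes had a mean under 10 counts per rat. Among them were Hist1h1t, Hist1h2aa and Hist1h2ba, the 3 genes listed here as testis-type, and other members were not sorted in this way. H1fnt, H1foo and H2afb3, histones of the germ line, were listed at 0 in all 10 rats. In the treatment table these 3 had 1 read in 1 rat each.

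The genotype comparison, TGNT against WTNT, asked which transcripts differ in young transgenic females before or early in plaque disease. No histone gene passed an adjusted p under 0.05 with at least a 1.5-fold change by edgeR's quasi-likelihood test, where 0.0136% of 14659 genes with reads did. At an unadjusted p under 0.05, 1 of 31 histone genes passed, against 3.78% of all genes with reads. That gene was Hist1h2aa, an H2A variant of male germ cells (TH2A).

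Hist1h2aa had estimated counts of 2.03, 4.44, 6.09, 4.29 and 1.80 in WTNT replicates 1 to 5 and of 15.64, 8.75, 13.39, 17.24 and 20.53 in TGNT replicates 1 to 5. Every TGNT rat was above every WTNT rat, a pattern shown by 0.314% of genes with reads. The level was 0.501 ± 0.207 RPM in WTNT and 1.98 ± 0.497 RPM in TGNT rats (SD, n = 5 each), and a two-sided exact permutation test gave p = 0.00794, which groups of this size cannot go below. The log2 fold change was 1.96 (SE 0.34), with an unadjusted p of 3.72e-05 and an adjusted p of 0.213 by edgeR's quasi-likelihood test, and by p the gene ranked 3 in the table. The adjusted p was 0.000844 by edgeR's exact test, 0.000258 by its likelihood ratio test, 0.0733 by DESeq2 and 0.301 by limma on log2(RPM + 1), so whether the gene was called rested on the test. The mean was 9.4 counts per rat, each of them a fraction.

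Hist1h2ba, the H2B gene across the shared promoter (TH2B), was not higher with its partner. Its estimated counts were 10.13, 4.62, 5.50, 4.74 and 3.47 in WTNT and 5.27, 1.37, 1.60, 3.92 and 6.97 in TGNT rats, and the groups overlapped. The log2 fold change was -0.70 (SE 0.49, unadjusted p = 0.17 by edgeR). Summed over the pair, the level was 1.35 ± 0.491 RPM in WTNT and 2.46 ± 0.778 RPM in TGNT rats (SD, n = 5 each), and the highest WTNT rat at 1.99 RPM lay above the lowest TGNT rat at 1.51 RPM. Hist1h1t, the testis linker histone, had from 0 to 4 counts per WTNT rat and from 0 to 2 per TGNT rat. Its level was 0.253 ± 0.235 RPM in WTNT and 0.129 ± 0.0945 RPM in TGNT rats, and the groups overlapped. Of 7 other male germ cell markers, 4 had reads, Prm1, Prm2 and Tnp1 were listed at 0 in every rat of the table, and the summed level of the 7 ran from 0.512 to 1.82 RPM in WTNT and from 1.47 to 2.26 RPM in TGNT rats.

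**Figure D2:**
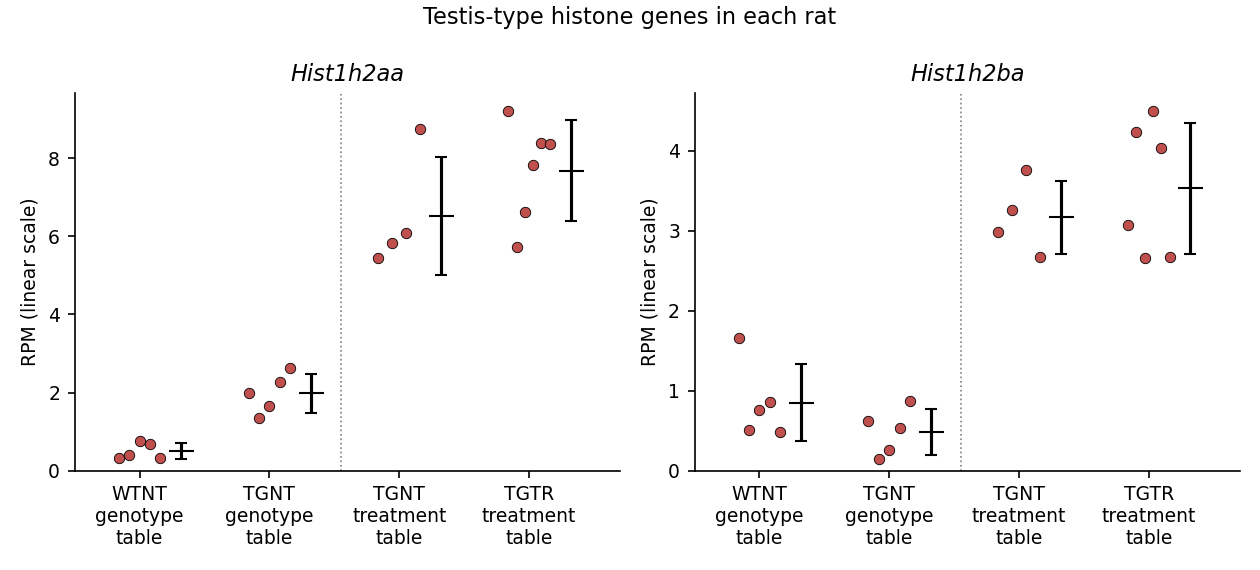
RPM of Hist1h2aa (left) and Hist1h2ba (right) in each rat (points), with mean and SD beside each group; the dotted line parts the genotype table from the treatment table, which were normalized apart. For Hist1h2aa the 5 TGNT rats of the genotype table, from 1.36 to 2.62 RPM, lie above the 5 WTNT rats, from 0.319 to 0.761 RPM, while for Hist1h2ba the groups of each table overlap.

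No abundant replication-type gene passed. Hist1h4b was at 65.8, 52.5, 55.0, 49.7 and 50.2 RPM in WTNT and 60.8, 67.1, 51.6, 61.9 and 56.9 RPM in TGNT rats. Its log2 fold change was 0.13 (SE 0.088, unadjusted p = 0.151 by edgeR). The groups overlapped, as they did for the other abundant genes. The log2 fold changes were 0.03 for Hist1h2bh (SE 0.12), 0.10 for Hist1h1d (SE 0.091) and 0.18 for Hist3h2a (SE 0.12), with unadjusted p-values of 0.811, 0.27 and 0.156 by edgeR.

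No replacement gene passed either. H3f3b was at 225, 217, 220, 235 and 199 RPM in WTNT and 245, 210, 207, 234 and 227 RPM in TGNT rats, and its log2 fold change was 0.04 (SE 0.064, unadjusted p = 0.518). H2afz, the variant of promoter nucleosomes, had a log2 fold change of 0.10 (SE 0.077, unadjusted p = 0.205). H1f0 (0.02, SE 0.088) and H2afy (-0.01, SE 0.068) had unadjusted p-values of 0.855 and 0.852, and each sign turned when single rats were left out.

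Set side by side, the classes were described by counts and medians without a test. Over the 17 replication-type genes that averaged at least 10 counts, 14 were higher in TGNT rats and 3 lower, with a median log2 fold change of 0.11. Of 7 replacement genes, 5 were higher and 2 lower, with a median of 0.04. Over all 11356 genes with that mean, 52.4% were higher and the median was 0.0062. None of these 24 histone genes had an unadjusted p under 0.05, against 3.89% of all genes with that mean, and their standard errors ran from 0.088 to 0.42 for the replication-type and from 0.064 to 0.31 for the replacement genes. The summed replication-type level was 185 ± 9.93 RPM in WTNT and 199 ± 15.4 RPM in TGNT rats, and the summed replacement level was 442 ± 11.9 and 454 ± 18.0 RPM (SD, n = 5 each). Both sums overlapped between the groups. Replication-type genes took 29.4% ± 0.832 of all histone RPM in WTNT and 30.5% ± 1.68 in TGNT rats. By family, 6 of 6 H2B and 7 of 9 H2A genes were higher, with medians of 0.18 and 0.11, and 3 of 4 H1, 1 of 2 H3 and 2 of 3 H4 genes were higher.

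**Figure D3:**
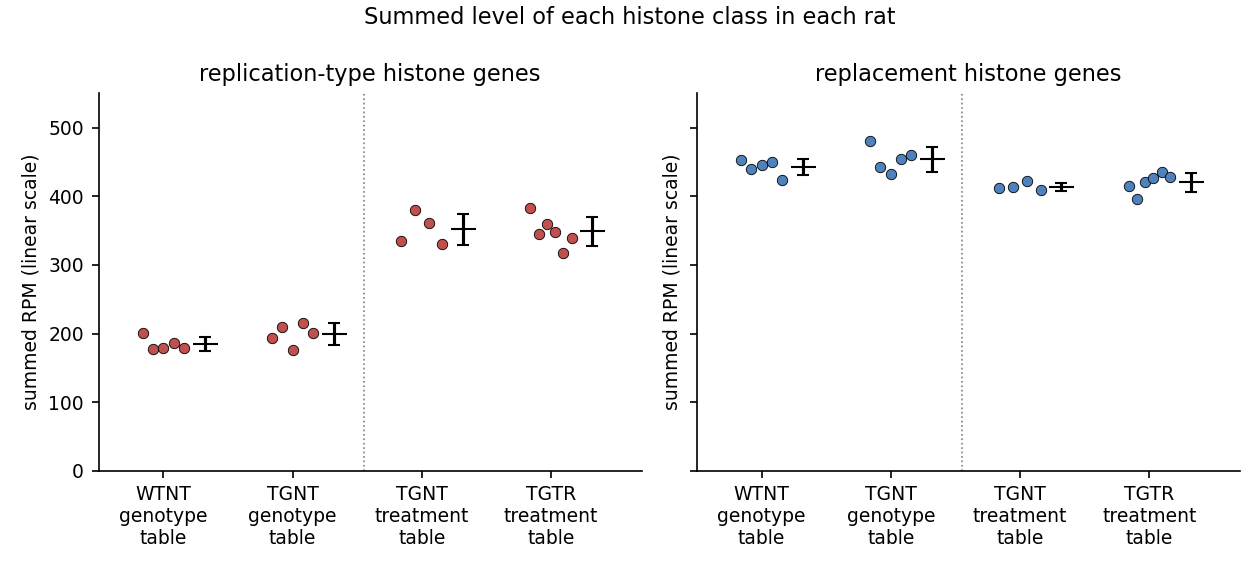
Summed RPM of the replication-type (left) and replacement (right) histone genes in each rat (points), with mean and SD beside each group; the vertical axis starts at 0 and the dotted line parts the separately normalized tables. Within each table the groups overlap in both classes.

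Genes that make or place histones were examined with them. Of 32 listed genes for histone transcription, 3′ end formation, chaperoning and exchange, 26 were in the table and 24 averaged at least 10 counts. Of these, 11 were higher and 13 lower in TGNT rats, none passed the thresholds, and the lowest unadjusted p was 0.0569, for Lsm11 (a part of the U7 particle that cuts histone mRNA; log2 fold change -0.27). Of 15 testable dividing-cell genes, 6 were higher and 9 lower, and the lowest unadjusted p was 0.0814, for Aurkb, a mitotic kinase. The summed level of all 23 dividing-cell genes was 140 ± 9.23 RPM in WTNT and 137 ± 9.11 RPM in TGNT rats. Of the oligodendrocyte markers 6 of 6 were lower in TGNT rats, 2 of them at an unadjusted p under 0.05 and 0 past the adjusted threshold, against 3.89% of all genes with that mean at an unadjusted p under 0.05. Their summed level ran from 4384 to 9872 RPM in WTNT and from 4132 to 7458 RPM in TGNT rats, so the groups overlapped. Other lists leaned to 1 side too, with 6 of 6 microglia markers higher and 5 of 6 neuron markers lower in TGNT rats. Their medians were 0.084 and -0.063 on the log2 scale, and 0 of them had an unadjusted p under 0.05 by edgeR. The part of these cells in the histone values was not tested. In tissue RNA fewer cells of a type and less RNA per cell cannot be told apart.

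The treatment comparison, TGTR against TGNT, asked which transcripts the drug pair changes in transgenic females. No histone gene passed the adjusted threshold, where 0% of 14884 genes with reads did by the quasi-likelihood test. At an unadjusted p under 0.05, 0 of 34 histone genes passed, against 5.66% of all genes with reads. DESeq2, limma and edgeR's exact and likelihood ratio tests also gave 0 histone genes past the adjusted threshold. Over all genes the same tools called 3 (DESeq2), 0 (limma), 4 (exact test) and 5 (likelihood ratio test). No histone gene had groups that did not overlap, against 1.32% of genes with reads.

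Hist1h2aa was at 5.43, 5.83, 6.09 and 8.74 RPM in TGNT replicates 1 to 4 and ran from 5.72 to 9.21 RPM with a median of 8.08 RPM in TGTR rats. The groups overlapped, and the log2 fold change was 0.24 (SE 0.17, unadjusted p = 0.174). With single rats left out, the log2 fold change ran from 0.16 to 0.41. The 0.41 was found without TGNT replicate 4, its highest untreated rat, with an unadjusted p of 0.0269 and an adjusted p of 1 by edgeR. Hist1h2ba was at 2.98, 3.26, 3.76 and 2.67 RPM in TGNT rats and ran from 2.67 to 4.50 RPM in TGTR rats, with a log2 fold change of 0.15 (SE 0.20, unadjusted p = 0.446). Here too every count of both genes was a fraction, at means of 88.4 and 41.7 counts per rat.

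Among the abundant replication-type genes the log2 fold changes were 0.01 for Hist1h4b (SE 0.076), -0.05 for Hist1h2bh (SE 0.080), 0.01 for Hist1h1d (SE 0.072) and 0.07 for Hist3h2a (SE 0.056). Their unadjusted p-values ran from 0.22 to 0.925 by edgeR. Hist1h4b was at 77.6, 89.8, 84.9 and 74.8 RPM in TGNT rats and between 73.6 and 92.7 RPM in TGTR rats, so the treated rats spanned the untreated ones. Among the replacement genes H3f3b had the lowest p, with 152, 148, 163 and 158 RPM in TGNT rats, a range from 147 to 177 RPM and a median of 163 RPM in TGTR rats, and a log2 fold change of 0.07 (SE 0.053, unadjusted p = 0.196). H2afz (0.03, SE 0.043), H2afy (-0.02, SE 0.056) and H1f0 (-0.03, SE 0.054) had unadjusted p-values of 0.52, 0.775 and 0.563.

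Picked after their values were seen, for the lowest p-values of the members, Hist3h2ba and Hist2h3c2 were lower in treated rats without passing. Hist3h2ba, an H2B gene, was at 25.2 ± 1.24 RPM in TGNT (SD, n = 4) and 22.8 ± 1.67 RPM in TGTR rats (SD, n = 6), with a log2 fold change of -0.14 (SE 0.070, unadjusted p = 0.0737, adjusted p = 0.99 by edgeR). Hist2h3c2, an H3 gene, was at 12.2 ± 1.11 and 10.4 ± 1.61 RPM, with a log2 fold change of -0.23 (SE 0.12, unadjusted p = 0.0791). Leaving out TGTR replicate 1 brought both to an unadjusted p under 0.05 (0.0499 and 0.0216), and leaving out TGNT replicate 4 did so for Hist3h2ba (0.0425).

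By class, 22 replication-type genes averaged at least 10 counts, and 13 of them were higher in TGTR rats and 9 lower, with a median log2 fold change of 0.02. Of 7 replacement genes, 3 were higher and 4 lower, with a median of -0.0030. Over all 12029 genes with that mean, 50.1% were higher and the median was 0.0002. The summed replication-type level was 352 ± 23.0 RPM in TGNT (SD, n = 4) and 349 ± 21.6 RPM in TGTR rats (SD, n = 6), and the summed replacement level was 414 ± 5.74 and 420 ± 13.8 RPM. The replication-type share of histone RPM was 45.9% ± 1.47 and 45.3% ± 2.03. Standard errors were smaller than in the genotype table, with a median of 0.13 over the replication-type and 0.056 over the replacement genes, against 0.22 and 0.088.

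**Figure D4:**
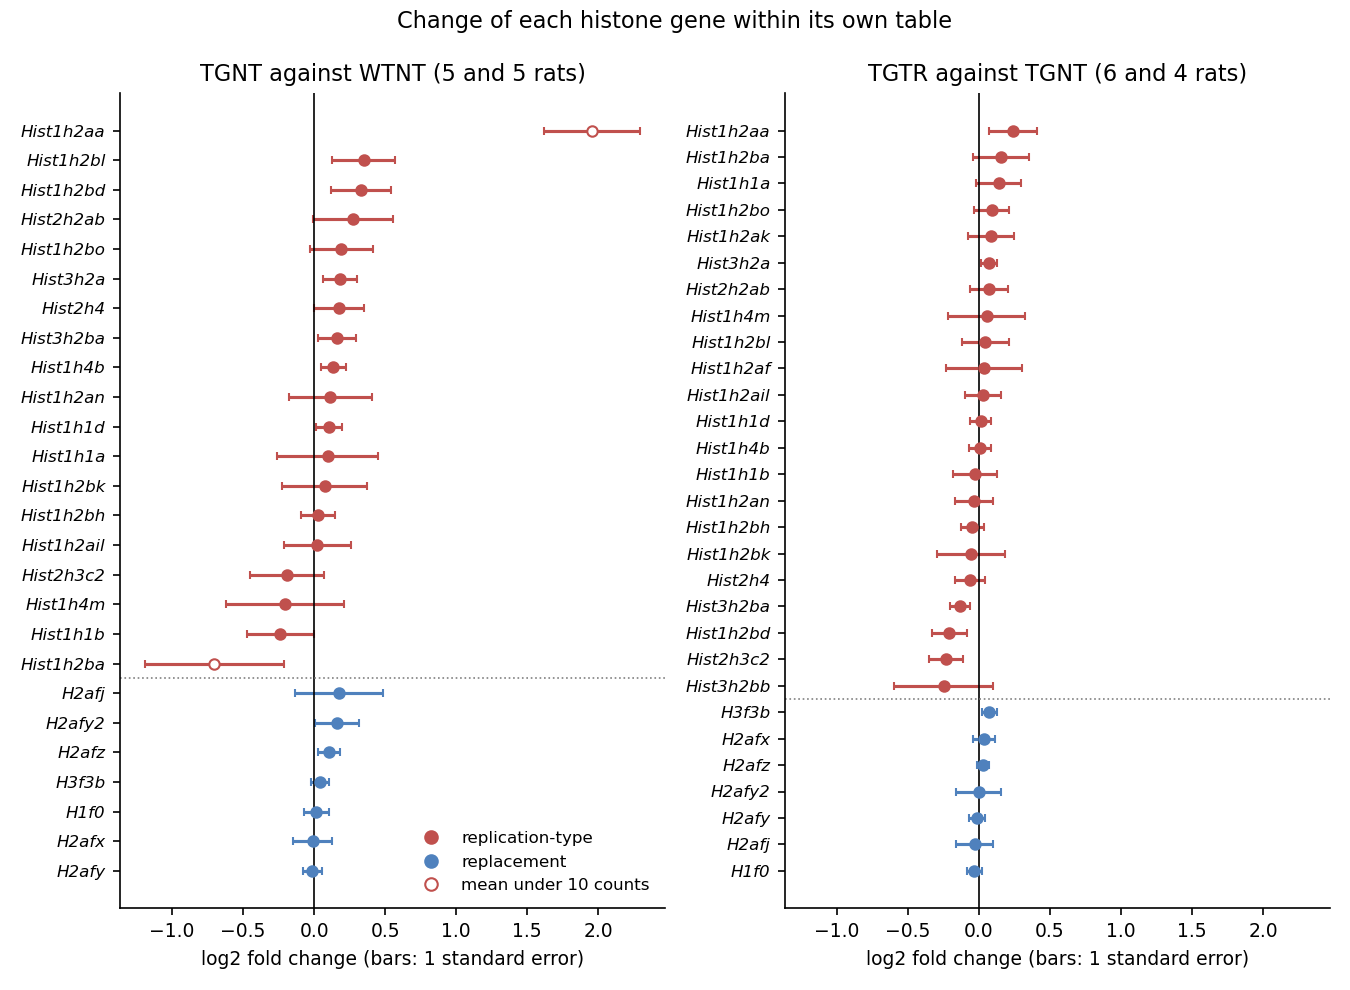
Log2 fold change with 1 standard error for each histone gene that averaged at least 10 counts, TGNT against WTNT (left) and TGTR against TGNT (right), each fitted within its own table, with Hist1h2aa and Hist1h2ba added as open points where their mean was lower. Hist1h2aa stands at 1.96 on the left and at 0.24 on the right, and the other genes lie between -0.70 and 0.35 on the left and between -0.25 and 0.15 on the right.

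Histone supply genes had no member past the thresholds in this comparison either, with 13 of 25 testable genes higher and 12 lower. Lsm11 had the lowest unadjusted p here too, 0.025 by edgeR, with a log2 fold change of -0.42. Of the 25 genes 1 had an unadjusted p under 0.05, against 6.14% of all genes that averaged at least 10 counts. Of 19 testable dividing-cell genes 10 were higher and 9 lower, and 3 of the lower ones had an unadjusted p under 0.05, against 6.14% of all genes with that mean. The lowest was that of Mki67, a marker of cycling cells (log2 fold change -0.25, unadjusted p = 0.00984 by edgeR). The summed level of the dividing-cell genes was 136 ± 5.32 RPM in TGNT (SD, n = 4) and 127 ± 6.04 RPM in TGTR rats (SD, n = 6). It ran from 131 to 143 RPM in TGNT and from 120 to 134 RPM in TGTR rats, so the groups overlapped.

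Markers of other cells were read in the same rats. Of the oligodendrocyte markers 6 of 6 were higher in TGTR rats (median 0.22 on the log2 scale), none at an unadjusted p under 0.05. Their summed level ran from 4018 to 6391 RPM in the untreated and from 4688 to 7220 RPM in the treated rats, so the groups overlapped. Endothelial markers were higher in 3 of 3, with Flt1 at an unadjusted p of 0.0308. Lower in TGTR rats were 6 of 6 neuron, 5 of 5 astrocyte and 5 of 6 microglia markers. Their medians were -0.043, -0.048 and -0.034 on the log2 scale, and 0 of them had an unadjusted p under 0.05 by edgeR. Over all genes that averaged at least 10 counts in this comparison, 6.14% had such a p. Choroid plexus and blood genes stood apart in 3 TGTR libraries. The choroid plexus sum over 6 genes was 2821 RPM in TGTR replicate 5, 131 RPM in TGTR replicate 6, from 3.6 to 6.55 RPM in the other 4 TGTR rats and between 6.43 and 16.4 RPM in TGNT rats. TGTR replicate 5 also had the lowest summed replication-type level, 318 RPM, and the highest replacement level, 436 RPM, of its group. The sum of 3 blood genes was 1286 RPM in TGTR replicate 4 and between 165 and 258 RPM in the other 9 rats. Without TGTR replicate 4, 5 or 6, each left out alone, 0 histone genes had an unadjusted p under 0.05 by edgeR. The shares over all genes with reads were 5.35%, 6.05% and 4.78% in these fits. The part of these cells in the histone values was not tested.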

How the data were processed

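Estimated counts per gene were made by the authors, with bcl2fastq 2.17, Bowtie2 2.1.0 and RSEM 1.2.15 on rat build rn6 per the labels. The deposited signal values are RPM, which the authors scaled with edgeR's TMM factors in each table apart; in the library with the lowest share, 99.9% of them equal the estimated count rounded to a whole read times 1 factor (tolerance 0.001), so fractions are lost in RPM. Here the counts were rounded and fitted per table with edgeR 4.0.16 (R 4.3.3; TMM, quasi-likelihood test, no filter, Benjamini-Hochberg over all rows), and a gene was called at an adjusted p under 0.05 and at least 1.5-fold. Standard errors (SE) were derived from this test, as the absolute log2 fold change divided by the square root of its F statistic. The fit was tested on simulated data first. Alternatives were DESeq2 1.42.0, limma 3.58.1, edgeR's exact and likelihood ratio tests, other scalings, filters and roundings, and leaving out each rat. Single genes in RPM were compared by an exact permutation test. Medians and shares of higher genes used genes that averaged at least 10 counts per rat.

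Named with fold changes were Hist1h2aa, Hist1h2ba, the 4 members of each class with the most reads, and any member of at least 10 counts with an unadjusted p under 0.05 or groups that did not overlap. Hist3h2ba and Hist2h3c2 fall outside this rule and were added to the treatment comparison after their values were seen. The members, the gene lists and this rule were chosen with earlier results of these data known. Each rat gave 1 library, so errors are between rats.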

Additional observations from a re-analysis of the deposited data

Results flagged for a closer look

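No value met the criteria for a closer look. Over the named histone genes and the 2 class sums, 48 groups of rats were examined for a rat far from the rest of its group by Dixon's test; 0 were found, where chance gives about 2.4. The effects of genotype and of treatment were measured in different tables and were not tested against each other.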

How the results depend on the processing

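Under settings other than leaving out a rat, 97 values of the counts of genes, the class medians and Hist1h2aa (TGNT against WTNT) kept their direction and side of the threshold, and 6 did not. In the genotype comparison 0 histone genes were past the adjusted threshold by the quasi-likelihood test, and 1, Hist1h2aa, by edgeR's exact test and by its likelihood ratio test, each with a log2 fold change of 1.96 and 4 genes called in all; the cause was not tested. Its adjusted p under all alternatives ran from 0.000258 to 1. Without single rats, histone genes with an unadjusted p under 0.05 numbered from 1 to 3, the 3 without WTNT replicate 1, where Hist1h4b and Hist1h2bd joined and 2.99% of genes with reads had such a p. In the treatment comparison the same count was 0, but 1 (Hist3h2ba) by limma on log2(RPM + 1) and 1 on log2(RPM + 0.1), against 6.6% and 6.55% of genes with reads, and from 0 to 2 without single rats, the 2 without TGNT replicate 4 (Hist1h2aa and Hist3h2ba) and without TGTR replicate 1 (Hist2h3c2 and Hist3h2ba), against 5.57% and 5.67% of genes with reads.

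Log2 fold changes near 0 turned sign. With library totals only, those of the treatment comparison were 0.0052 for H1f0 and 0.022 for H2afy. Without single rats the genotype values ran from -0.063 to 0.067 for H1f0, from -0.056 to 0.011 for H2afy and from -0.073 to 0.10 for Hist1h2bh, and the treatment values from -0.050 to 0.037 for H2afy, from -0.028 to 0.053 for Hist1h1d and from -0.035 to 0.051 for Hist1h4b. The titles number rats within groups, but same-numbered rats did not deviate together (r from -0.19 to 0.30 over 5 genotype pairs and from -0.53 to 0.093 over 4 treatment pairs), so the numbers were not taken as pairs. With the replicate block, which used 8 rats in the treatment comparison, no call changed, Hist1h2aa had a log2 fold change of 1.91 with an adjusted p of 1 (TGNT against WTNT), and treatment values turned to -0.026 for Hist1h1d and 0.011 for Hist1h2bh. Depth limits the genes with few reads, among them Hist1h2aa, which averaged 9.4 counts in the genotype table.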

Other observations

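The TGNT rats of the genotype and the treatment table carry the same transgenes and had no treatment, yet replication-type histone genes sat at different levels in them. The tables were normalized apart and hold different rats, so the levels were set side by side after they were seen and were not tested. All 24 replication-type genes had a higher mean RPM in the 4 TGNT rats of the treatment table than in the 5 of the genotype table, and for 18 of them every rat of the treatment table was higher. Such separation was common between the tables. Over 11342 genes that averaged at least 10 counts in both, 28.4% had every treatment-table rat higher and 27.2% every one lower. Of the 17 replication-type genes with that mean, 12 were higher in every such rat and 0 lower. Their summed level was 199 ± 15.4 RPM (SD, n = 5) in the genotype table and 352 ± 23.0 RPM (SD, n = 4) in the treatment table.

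Over the 17 of them with a mean of at least 10 counts in the genotype table, the median ratio of treatment to genotype table was 1.96, with a range from 1.24 to 6.02, and 41.2% were at least 2-fold higher. Over 11342 genes the median ratio was 1.01 and 5.72% were at least 2-fold higher. The abundant Hist1h2bh and Hist1h4b had ratios of 1.24 and 1.37, while Hist2h3c2 had 6.02 and Hist1h2ail, an H2A gene, 4.19. Hist1h2aa was at 1.98 ± 0.497 RPM (SD, n = 5) in the genotype table and 6.52 ± 1.505 RPM (SD, n = 4) in the treatment table, with no overlap between the rats.

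Replacement genes had a median ratio of 1.02 over 7 genes, and their summed level was 454 ± 18.0 and 414 ± 5.74 RPM. H3f3b was lower in the treatment table, at 225 ± 16.2 against 155 ± 6.54 RPM, H1f0 was level at 88.2 RPM in both, and H2afj and H2afx had ratios of 3.04 and 2.172. Counts of H2afj, H2afx and H2afy2 were fractional in all rats, and H2afy2 had a ratio of 1.02 with overlapping ranges. H2afy, with whole counts in all rats, had a ratio of 1.32 with no overlap. Among histone genes with a fraction in at least 8 of 10 rats of both tables the median ratio was 1.96 (n = 15), and among those with whole counts it was 1.16 (n = 6). Over all genes the same medians were 0.959 (n = 1523) and 1.01 (n = 9384). Among the histone genes this split largely followed the class. Most of the fractional ones were replication-type and most of the whole ones replacement genes, so the 2 splits cannot be told apart. Dividing-cell genes had a median ratio of 0.856 over 15 genes. The tables also differ in depth, and depth, rats and any other difference between the 2 sets of libraries cannot be told apart here. The separate scaling applied 1 factor per library to all genes, and the median ratio over all 11342 genes was 1.01. Its part in the histone ratios was not tested.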
